A study of Mus musculus with 96 samples.

Results

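The Hox genes encode homeodomain transcription factors that lie in clusters on the chromosome. Neighbouring genes of a cluster are switched on in the embryo in the order in which they lie, so that low-numbered genes begin near the head and high-numbered genes begin further back. Many adult cells, above all mesenchymal, muscle, kidney tubule and blood-forming cells, keep part of the pattern of the body level at which they arose. The members were the rows whose gene name was Hoxa, Hoxb, Hoxc or Hoxd followed by a number, which gave 39 of the 56941 gene rows. They fall into 4 clusters: 11 genes of the Hoxa cluster on chromosome 6, 10 of Hoxb on chromosome 11, 9 of Hoxc on chromosome 15 and 9 of Hoxd on chromosome 2. The number in a name is its paralogue group, shared by genes of different clusters that descend from the same ancestor.

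Total RNA had been extracted from frozen organs of mice aged 2 months and sequenced, giving 96 libraries. By the labels, the mice were of the reprogrammable strains 4Fj, 4FsB, 4Fk and 4FsA, or wild type (WT). Each strain gave 3 libraries of kidney, skeletal muscle, small intestine, liver, heart and brain, except that WT heart had 2. Spleen had 3 libraries of 4FsA, 1 of 4Fj and 3 of WT. The labels used here give no promoter, transgene locus, sex or inducing treatment for these strains, and do not say which libraries came from the same animal. The tissue labels do not say which muscle, gut segment or part of the brain was taken. The columns of the deposited tables name the organ and a running number but no genotype, so the groups compared were the organs: 15 libraries each of kidney, skeletal muscle, small intestine, liver and brain, 7 of spleen and 14 of heart. Each group mixes genotypes, and no strain was compared with another. The p-values measure the spread between these libraries, which may include repeated organs of 1 animal.

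Library totals ran from 6624474 to 17882603 estimated counts. A level in CPM is the gene's count divided by the library total, scaled to a total of 1000000, and 3 counts amounted to 0.168 to 0.453 CPM. All 29 markers of the 7 organs, 3 to 5 per organ, had their highest median in the organ they name, with medians there between 20.5 CPM (Lct, a gut lactase) and 55931 CPM (Alb, serum albumin). Libraries that stood apart in mitochondrial counts or in genes of another organ included small intestine libraries 5 and 6 with 62.3% and 78.8% of counts from the mitochondrial genome, small intestine library 4 with 5006 CPM of the pancreatic lipase gene Pnlip, kidney library 11 with a summed 1510 CPM of 5 adrenal genes against 1.70 to 12.9 CPM in the other kidney libraries, and brain library 12 with 11.7 CPM of the cerebellar gene Gabra6. A list of 4 liver genes summed to 4295 CPM in spleen library 2, 2604 CPM in skeletal muscle library 12 and 224 CPM in heart library 9, against medians of 4.26, 2.93 and 2.14 CPM in their organs, and the adrenal genes summed to 119 CPM in liver library 12. In bulk RNA, fewer cells of a type and less RNA per cell cannot be told apart.

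The organs differed in how far along the Hox series their genes reached and in the clusters they used. Taking a median of 1 CPM as the level of presence, kidney had 29 Hox genes, small intestine 16, skeletal muscle 14, spleen 9, liver 2, heart 2 and brain 0. Kidney held Hoxa genes up to group 11, among them 2, 3, 4, 5, 7, 9, 10 and 11, together with 8 Hoxb genes (2 to 9), 6 Hoxc genes (4, 5, 6, 8, 9 and 10) and 6 Hoxd genes (3, 4, 8, 9, 10 and 11). Skeletal muscle held 6 Hoxa genes (3, 4, 5, 7, 9 and 10), no Hoxb gene, 6 Hoxc genes (4, 6, 8, 9, 10 and 11) and 2 Hoxd genes (8 and 9). Small intestine stopped at group 8, with 4 Hoxa genes (3, 4, 5 and 7), 7 Hoxb genes (2 to 8), 4 Hoxc genes (4, 5, 6 and 8) and Hoxd8. Spleen also stopped at group 8 and lacked the Hoxc cluster at this level, with Hoxa3, Hoxa5, Hoxa7, Hoxb2, Hoxb3, Hoxb4, Hoxb6, Hoxb7 and Hoxd8. Liver reached the level with Hoxa5 and Hoxb4, and heart with Hoxb4 and Hoxd8. Counting genes at 1 CPM in every library, kidney had 23, skeletal muscle 10, spleen 4, and small intestine, liver, heart and brain 0.

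**Figure D1:**
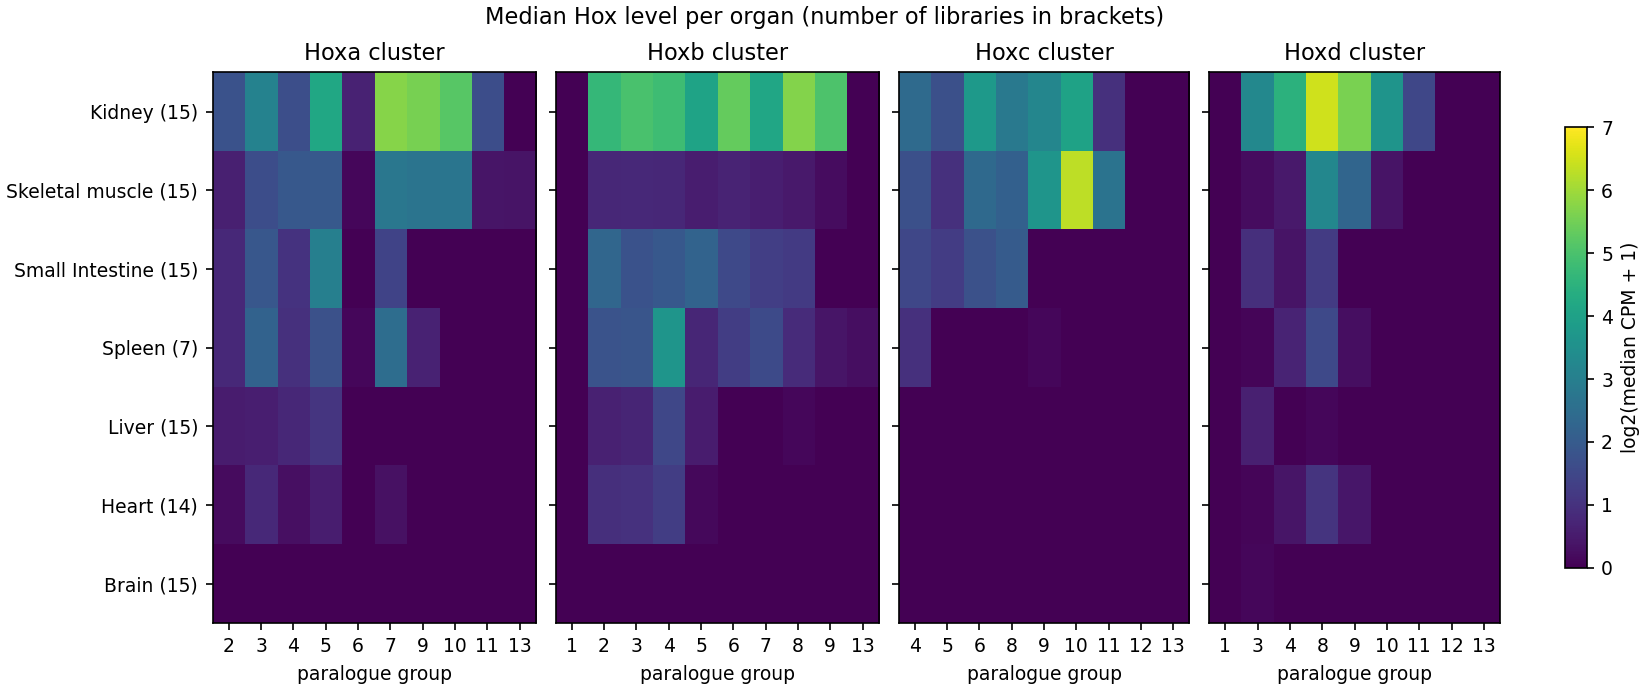
Median level of 38 of the 39 Hox genes (columns, by cluster and paralogue group) in each organ (rows), as log2 of the median CPM plus 1; the number of libraries is in brackets. Kidney is lit from low to high numbers in all 4 clusters, skeletal muscle mostly in the middle and high numbers of Hoxa, Hoxc and Hoxd, small intestine and spleen up to group 8, and brain stays dark.

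The summed level of the 39 genes separated kidney from all other organs. Summed Hox CPM ranged over 461 to 853 in kidney (median 648), 88.9 to 228 in skeletal muscle (160), 1.32 to 209 in small intestine (45.9), 32.9 to 59.4 in spleen (45.9), 4.75 to 17.8 in liver (10.6), 1.97 to 15.7 in heart (9.30) and 0.179 to 3.12 in brain (0.595). Kidney overlapped no other organ. Small intestine overlapped each of the other 5, and without its 2 libraries above 50% mitochondrial counts it ran from 9.41 to 209 CPM and no longer met brain. Liver overlapped heart. The Hoxc cluster carried 57.9% to 74.0% of the Hox counts in skeletal muscle, against 5.63% to 9.81% in kidney. The Hoxb cluster carried 1.05% to 4.99% in skeletal muscle, against 25.2% to 51.2% in kidney.

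The mean paralogue number weighted by counts ordered the organs from high to low numbers. It ran from 7.87 to 9.11 in skeletal muscle (median 8.73), 6.72 to 7.67 in kidney (7.06), 4.38 to 6.34 in small intestine (5.28), 3.89 to 5.79 in spleen (5.22), 3.82 to 8.05 in heart (4.43) and 3.41 to 4.81 in liver (4.27). Every skeletal muscle library lay above every kidney library, and every kidney library above every library of small intestine, spleen and liver. Heart library 1, with a summed Hox level of 1.97 CPM of which Hoxd8 gave 1.70, was the lone heart library above 5.30. Groups 9 to 13 made up 50.9% to 80.7% of Hox counts in skeletal muscle, 28.3% to 36.5% in kidney and 0% to 5.20% in liver. Brain is not placed, since its Hox counts were too few. This score is a description of the members and was not tested.

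**Figure D2:**
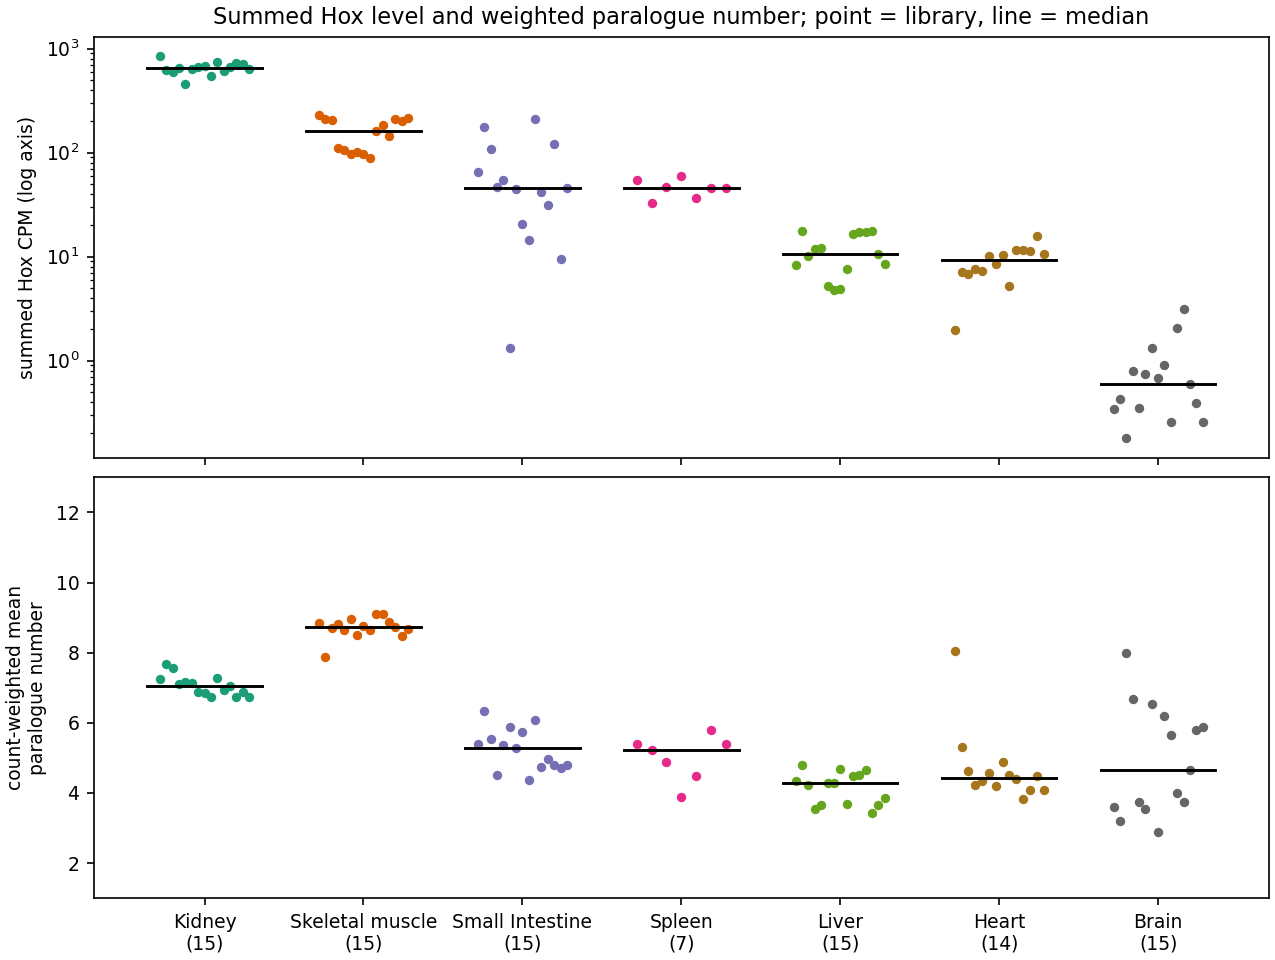
Summed Hox CPM (top, log axis) and the count-weighted mean paralogue number (bottom) of each library, by organ; points are libraries, lines are medians, and the number of libraries is in brackets. Skeletal muscle has the highest weighted numbers (7.87 to 9.11) although kidney has the highest sums (461 to 853).

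Of the 39 genes, 30 reached a median of 1 CPM in some organ, and 26 of these were highest in kidney and 4 in skeletal muscle. In 13 of the 26, the lowest kidney library lay above the highest library of the next organ by median. Of the 4 highest in skeletal muscle, Hoxa4, Hoxc9, Hoxc10 and Hoxc11, Hoxc10 alone was apart from the next organ in this way. The authors' own normalised values put 28 of the 30 in the same organ, with Hoxc4 and Hoxc8 as the exceptions. The gene with the highest median per kb of exon was Hoxd8 in kidney (32.6 CPM per kb), Hoxc10 in skeletal muscle (40.6), Hoxa5 in small intestine (3.81) and Hoxb4 in spleen (4.50), liver (0.715) and heart (0.558).

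The promoters of these leaders are shown where an entry was found, which left out Hoxc10. Hoxa5 and Hoxb4 had their highest median in kidney. RefSeq's promoter table on GRCm38.p6 held 24 entries for 22 of the 39 genes, each from 250 bases before to 50 bases after a start, and among the leaders Hoxd8, Hoxa5 and Hoxb4. Hoxd8 lies at chr2:74704365-74704664 on the + strand, Hoxa5 at chr6:52204538-52204837 on the - strand and Hoxb4 at chr11:96318017-96318316 on the + strand. The letters run 5′ to 3′, and capitals mark each CG dinucleotide, the site of DNA methylation in mammals.
Hoxd8: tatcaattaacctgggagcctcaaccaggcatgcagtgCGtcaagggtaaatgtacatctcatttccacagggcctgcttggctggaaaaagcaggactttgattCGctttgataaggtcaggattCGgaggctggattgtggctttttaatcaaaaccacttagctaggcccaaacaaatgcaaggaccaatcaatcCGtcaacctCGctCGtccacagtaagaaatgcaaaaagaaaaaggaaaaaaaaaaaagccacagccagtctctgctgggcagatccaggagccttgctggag
Hoxa5: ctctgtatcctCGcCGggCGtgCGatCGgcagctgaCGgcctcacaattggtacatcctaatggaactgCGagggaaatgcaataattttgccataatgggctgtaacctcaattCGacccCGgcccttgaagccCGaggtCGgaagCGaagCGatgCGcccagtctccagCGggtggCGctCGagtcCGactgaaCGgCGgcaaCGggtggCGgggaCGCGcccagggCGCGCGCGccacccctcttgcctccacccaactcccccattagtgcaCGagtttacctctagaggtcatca
Hoxb4: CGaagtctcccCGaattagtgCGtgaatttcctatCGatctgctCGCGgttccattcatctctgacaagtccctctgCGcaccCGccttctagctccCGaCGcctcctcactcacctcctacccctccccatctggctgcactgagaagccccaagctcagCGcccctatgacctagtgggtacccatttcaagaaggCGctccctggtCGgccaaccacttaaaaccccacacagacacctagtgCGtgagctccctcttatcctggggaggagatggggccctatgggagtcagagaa
The window of Hoxd8 held 6 CG dinucleotides at 46.7% G and C bases, that of Hoxa5 29 at 61.7%, and that of Hoxb4 14 at 58.0%. The median Hox window held 14.5 CG dinucleotides and 57.7% G and C, against 7 and 52.7% over all 32851 windows. Searched on both strands, TAATTA, a common homeodomain core, was in 8.33% of Hox windows and 5.29% of all. TGATNNAT, the letters of a Hox and Pbx pair, was in 16.7% of Hox windows and 8.85% of all. TTTATG, letters bound by Cdx factors and by high-numbered Hox proteins, was in 20.8% of Hox windows and 11.9% of all. None of these motifs was in the 3 windows shown.

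Kidney had the broadest code, and its highest levels lay in the middle and high groups. Hoxd8 ranged from 58.5 to 230 CPM (median 89.5) in kidney, against at most 18.8 CPM in any other library, which was skeletal muscle. The 3 highest kidney libraries had 230, 174 and 146 CPM, and the other 12 lay at or below 125 CPM. Hoxd9 had a kidney median of 46.8 CPM (25.9 to 73.0) and Hoxd10 one of 11.3 CPM (6.22 to 21.1), and neither range met that of another organ. In the Hoxa cluster, Hoxa7 had 33.2 to 68.1 CPM (median 52.2), Hoxa9 34.7 to 63.6 CPM (46.0) and Hoxa10 27.1 to 51.0 CPM (35.5). The next organ for these 3 was skeletal muscle, with highest libraries of 19.4, 13.4 and 15.2 CPM. Hoxa9 is best known for its part in blood-forming cells and leukaemia.

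The Hoxb cluster was high from group 2 to group 9 in kidney. Hoxb6 had 27.9 to 54.3 CPM (median 39.5), Hoxb8 33.2 to 66.3 CPM (51.1) and Hoxb9 25.9 to 57.6 CPM (31.9). Hoxb7, whose promoter is used to drive genes in the mouse collecting duct, had 8.68 to 27.5 CPM (16.6), against at most 5.42 CPM in spleen, the next organ by median, while 1 small intestine library reached 21.8 CPM. Hoxb3 and Hoxb4 varied more, at 11.9 to 37.3 CPM (30.5) and 5.10 to 41.7 CPM (27.2), with the lowest Hoxb4 values, 5.10 and 9.30 CPM, in kidney libraries 2 and 3. Hoxa11 and Hoxd11, whose group is required for the mouse kidney to form, stayed low in the adult organ, at 0.876 to 5.49 CPM (median 2.16) and 0.756 to 4.12 CPM (1.82). Hoxd11 was at 0 in every skeletal muscle library.

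By edgeR, which tests counts with a quasi-likelihood model, all 30 Hox genes tested rose in kidney against the mean of the other 6 organs, beside 26.9% of all 20100 genes tested, and 0 fell, beside 26.7%. A count of 0 also held at an unadjusted p below 0.05 and with DESeq2. The filter on low counts passed 30 genes and left out Hoxa6, Hoxa13, Hoxb1, Hoxb13, Hoxc12, Hoxc13, Hoxd1, Hoxd12 and Hoxd13. A gene that passes through the organ where it is high is bound to differ, so these counts describe the genes tested and not the cluster. With no filter, 32 of 39 rose in kidney, beside 18.8% of the 41152 genes then tested. The mean of 6 organs is taken on the log scale and is set in part by organs near 0, so kidney was also compared with each organ separately. Then 20 Hox genes were higher in kidney than in each of the other 6 organs, beside 4% of all genes: 6 Hoxa genes (3, 5, 7, 9, 10 and 11), 8 Hoxb genes (2 to 9) and 6 Hoxd genes (3, 4, 8, 9, 10 and 11), and no Hoxc gene. With library totals in place of TMM factors, which scale libraries to a common middle of their genes, the count was again 20, with Hoxc6 in and Hoxa3 out.

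Against liver, a neighbour in the abdomen, kidney was higher in all 30 genes tested, beside 26.2% of all genes, and lower in 0, beside 24.7% and with 0 also at an unadjusted p and with DESeq2. The smallest kidney to liver differences were in low groups. Hoxa5 was 16.9 CPM in kidney (10.4 to 22.3) and 1.11 CPM in liver (0.105 to 10.1), a log2 difference of 1.93 ± 0.46 (SE, adjusted p = 2e-04). Hoxb4 was 27.2 CPM in kidney and 1.83 CPM in liver (0.446 to 5.33), a log2 difference of 3.10 ± 0.38 (adjusted p = 2.45e-11). The kidney and liver ranges of Hoxb4 overlapped through kidney library 2, and those of Hoxa5 did not overlap.

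Skeletal muscle had a narrower code that centred on the Hoxc cluster. Hoxc10, which marks lumbar levels and the hind limb in the mouse embryo, had 36.1 to 106 CPM (median 77.5) in skeletal muscle, against 11.1 to 24.2 CPM (15.3) in kidney and at most 1.05 CPM in the small intestine. Its neighbours Hoxc9 and Hoxc11 had 7.13 to 17.0 CPM (11.7) and 1.78 to 12.5 CPM (5.35) in skeletal muscle, against 5.34 to 11.8 CPM (8.31) and 0.240 to 3.30 CPM (0.962) in kidney. Their ranges met in both cases. Per kb of exon, Hoxc10 stood at 40.6 CPM, and the next Hox gene of the organ, Hoxc9, at 4.80. The Hoxa genes of groups 7, 9 and 10 had medians of 5.84, 5.52 and 5.63 CPM, and Hoxd8 and Hoxd9 had 8.49 and 3.89 CPM. The Hoxb genes had medians of at most 0.764 CPM, and group 13 was low as well, with Hoxa13 at 0.282 CPM (0 to 2.61).

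Skeletal muscle had 22 Hox genes higher than the mean of the other 6 organs, beside 29.5% of all genes, and 0 lower, beside 35.2% (0 also at an unadjusted p and with DESeq2). Without TMM factors, which moved the median log2 difference of all genes from -0.31 to -1.15, Hoxb3 and Hoxb4 became lower. Compared with each organ separately, Hoxa4, Hoxc9, Hoxc10 and Hoxc11 were higher in skeletal muscle than in the other 6, beside 6.95% of all genes, and with library totals Hoxc10 and Hoxc11 remained. The summed Hox level also moved with mitochondrial counts: the 6 skeletal muscle libraries with 30.1% to 43.4% of counts from the mitochondrial genome had sums of 88.9 to 110 CPM, and the other 9 had 144 to 228 CPM at 4.67% to 25.0%. With mitochondrial genes out of the totals, all 15 ran from 140 to 267 CPM. The part of the mitochondrial counts in the difference was not tested further.

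Kidney and skeletal muscle together set the code apart by cluster. Kidney had 20 genes higher than skeletal muscle, beside 33.3% of all genes, and 4 lower, beside 29.2%. The 20 included all 8 Hoxb genes from 2 to 9 and all 6 Hoxd genes tested. Hoxb8 was 51.1 CPM in kidney and 0.384 CPM in skeletal muscle (0 to 1.11), a log2 difference of 6.01 ± 0.54 (adjusted p = 1.39e-17). The 4 lower in kidney were Hoxa4, Hoxc9, Hoxc10 and Hoxc11. For Hoxc10 the log2 difference of kidney minus skeletal muscle was -3.13 ± 0.32 (adjusted p = 8.59e-13), and for Hoxc11 -3.14 ± 0.45 (adjusted p = 7.49e-09). Library totals moved the median of all genes in this pair from 0.12 to 1.04 and left Hoxc10 and Hoxc11 lower, at -2.19 and -2.30. Hoxa2, Hoxc4, Hoxc5, Hoxc6 and Hoxc8 were among the genes that did not pass the test. This pair was chosen after the levels had been seen.

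**Figure D3:**
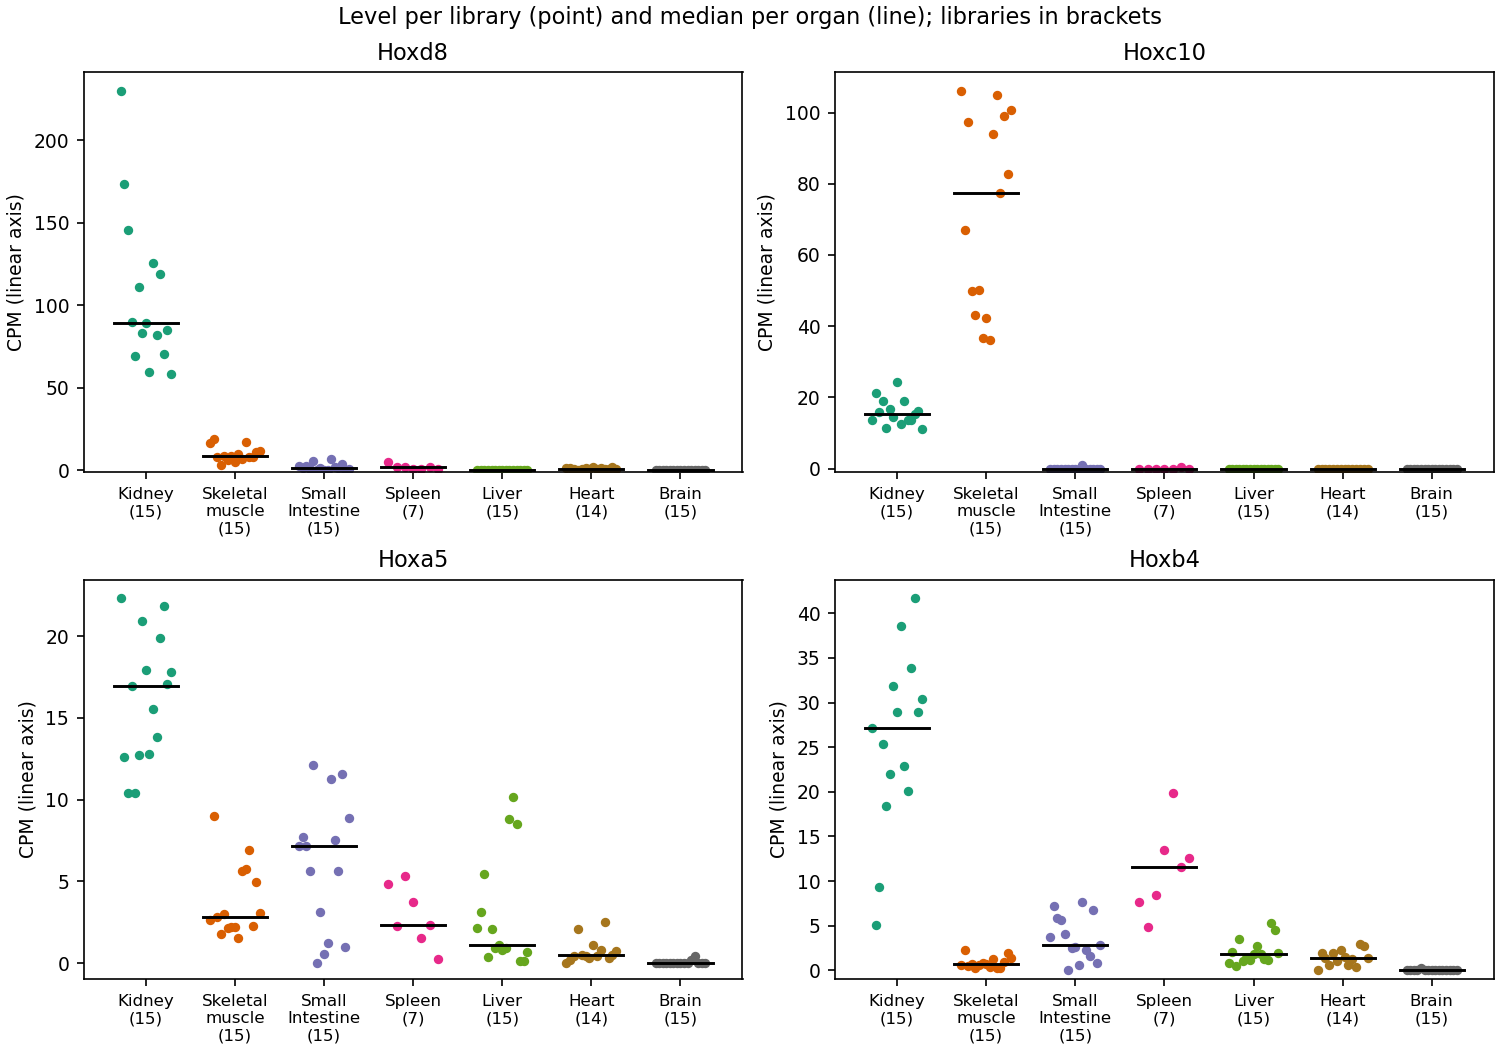
Level in CPM (linear axis, scale differs between panels) of Hoxd8, Hoxc10, Hoxa5 and Hoxb4 in each library (points) by organ, with the median (line) and the number of libraries in brackets. Kidney is apart for Hoxd8 and skeletal muscle for Hoxc10, while Hoxa5 and Hoxb4 reach small intestine, spleen and liver.

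Heart, the other striated muscle, lacked the high-numbered code of skeletal muscle. In the mouse embryo, low-numbered Hox genes are known from the cells that add the outflow and inflow ends of the heart. Skeletal muscle had 23 genes higher than heart, beside 23.3% of all genes, and 0 lower, beside 25.2% (0 also at an unadjusted p and with DESeq2). Hoxc10 was at 0 CPM in every heart library, and Hoxa10 did not exceed 0.0875 CPM there, against 3.48 to 15.2 CPM in skeletal muscle. The genes that did not pass included Hoxb2, Hoxb3, Hoxb4, Hoxd3, Hoxd4 and Hoxd11. Hoxb4 had a median of 0.713 CPM (0.217 to 2.32) in skeletal muscle and 1.43 CPM (0 to 2.96) in heart, a log2 difference of -0.27 ± 0.38 (adjusted p = 0.573). For Hoxb2 the log2 difference was 0.05 ± 0.43 (adjusted p = 0.954), with 0.711 CPM in skeletal muscle and 0.932 CPM in heart. Against the mean of the other 6 organs, heart had 12 genes lower, beside 30.4% of all genes, and 1 higher, beside 27%. The 1 was Hoxd4 with a heart median of 0.323 CPM, and its call was lost with library totals, with no filter and with DESeq2. Genes near 0 in several organs, such as Hoxc10 (-4.69) and Hoxc9 (-4.16), were not called. The 12 thus do not measure how many genes were lower. DESeq2 called 19 lower, beside 34.6% of all genes. Outside library 1, Hoxa3 had 0.226 to 2.80 CPM, Hoxb3 0.161 to 2.52 CPM and Hoxd8 0.440 to 2.16 CPM.

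Small intestine had a code of groups 2 to 8 in the Hoxa, Hoxb and Hoxc clusters. Hoxa5, which in the mouse acts in the mesenchyme of gut and lung, had a median of 7.15 CPM and ran from 0 to 12.1 CPM. Hoxb2 and Hoxb5 had 3.97 CPM (0 to 8.17) and 3.70 CPM (0 to 16.4). Hoxc8 had 2.997 CPM (0 to 20.3) and Hoxb9 a median of 0 with a highest value of 27.7 CPM. The fit gave 19 genes higher in small intestine than the mean of the other 6 organs, beside 32.3% of all genes, and 1 lower, Hoxd9, beside 30%. Among the called genes, Hoxb5 had a log2 difference of 3.28 ± 0.29 (adjusted p = 2.25e-18) and Hoxc6 one of 4.05 ± 0.28 (adjusted p = 4.25e-24). Without the libraries above 50% mitochondrial counts, the median of Hoxb5 was 5.02 CPM over 13 libraries.

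Set against liver, which buds from the gut tube, small intestine had 21 genes higher, beside 32.8% of all genes, and 0 lower, beside 26.9% (0 also at an unadjusted p and with DESeq2). The largest contrasts were in the Hoxc cluster. Hoxc6 had a median of 2.32 CPM in small intestine (0 to 14.4), while in liver no library reached 1 CPM. Hoxc8 had 1 CPM or more in 11 of 15 small intestine libraries and in none of liver. Hoxa5 and Hoxb4 did not pass, at log2 differences of 0.88 ± 0.45 (adjusted p = 0.0826) and 0.49 ± 0.36 (adjusted p = 0.243). These 2 were the genes that reached 1 CPM in liver by median. Hoxa2, Hoxd3, Hoxa11, Hoxc11, Hoxd10 and Hoxd11 did not pass either, the last 4 with a median of 0 in both organs.

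The Hox level of small intestine moved with the amount of smooth muscle and mesenchyme RNA. A list of 7 genes of these cells (Myh11, Actg2, Des, Acta2, Col1a1, Col3a1 and Pdgfra) summed to 4.95 to 8178 CPM over the 15 libraries. The 5 libraries with the highest sums of this list were also the 5 with the highest summed Hox level. Library 10 had 8178 CPM of the list and a Hox sum of 209 CPM, library 2 had 5951 and 175 CPM, library 3 had 5611 and 109 CPM, and library 13 had 4854 and 120 CPM. At the other end, library 14 had 94.7 CPM of the list and a Hox sum of 9.41 CPM, and library 6, at 78.8% mitochondrial counts, had 4.95 and 1.32 CPM. Actg2, a smooth muscle actin, alone ran from 1.11 to 2041 CPM and was at 0 in no library, while Myh11, Des, Col3a1 and Pdgfra each had a lowest value of 0. What part of the Hox differences came from this layer was not tested.

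**Figure D4:**
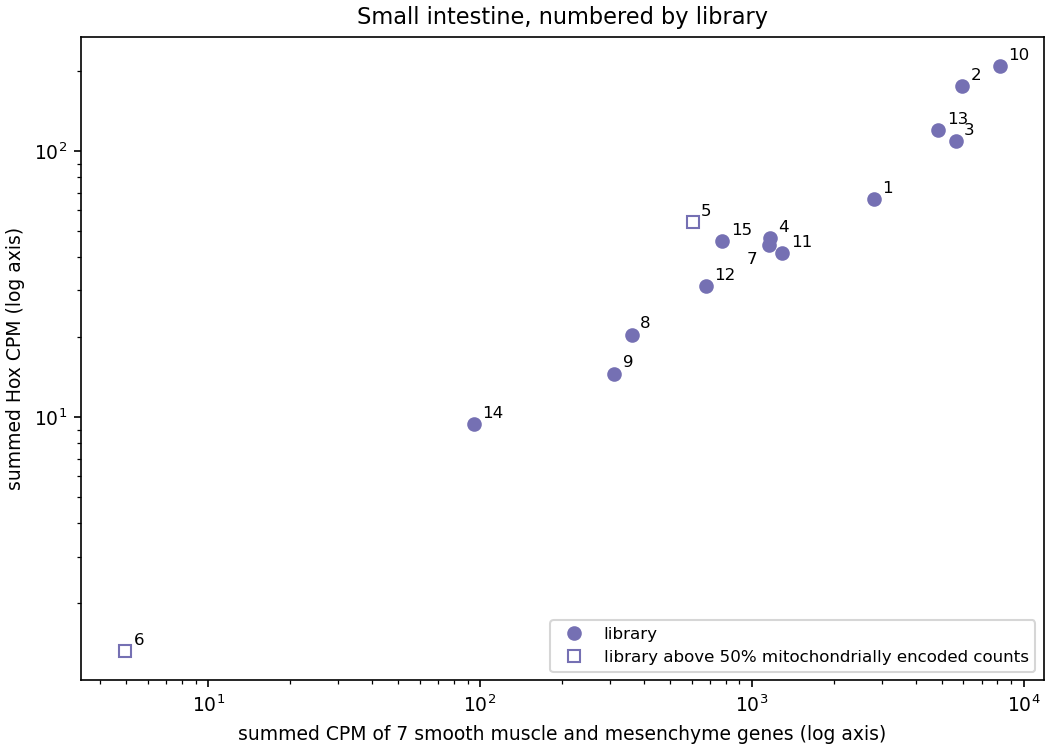
Summed Hox CPM of each small intestine library against its summed CPM of 7 smooth muscle and mesenchyme genes, both on log axes and numbered by library; open squares are the 2 libraries above 50% mitochondrial counts. The points run from library 6 (4.95 and 1.32 CPM) to library 10 (8178 and 209 CPM).

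High-numbered Hoxb and Hoxc genes in small intestine were concentrated in few libraries. Library 2 had 27.7 CPM of Hoxb9, 20.3 CPM of Hoxc8 and 22.8 CPM of Hoxb6, and library 10 had 13.9, 19.2 and 14.7 CPM of the same genes. Library 3 followed with 4.79 CPM of Hoxb9 and 12.6 CPM of Hoxc8, and 9 libraries had Hoxb9 at 0. Library 2 also had the highest level of Fabp6, the ileal bile acid binding protein, at 2824 CPM, and of Slc10a2, the ileal bile acid transporter, at 557 CPM. Libraries 10 and 2 had the lowest levels of Gata4, a factor of the proximal small intestine, at 5.16 and 14.9 CPM, although library 10 had 3.58 CPM of Fabp6. Library 10 also had the highest sum of the smooth muscle and mesenchyme list, 8178 CPM. The genes named are some of lists of 5 proximal and 4 distal genes, and position along the gut was not tested. Library 4, with the pancreatic genes, had Hoxc8 and Hoxb9 at 0. Library 13 had 120 CPM of Hox genes in all but 1.30 CPM of Hoxc8, no Hoxb9 and 0 CPM of Fabp6. The weighted paralogue number was 6.34 in library 2 and 6.09 in library 10, against 4.80 in library 13 and 4.52 in library 4. Cdx1 and Cdx2, gut homeobox genes that regulate Hox genes in the mouse embryo, had medians of 71.4 and 64.7 CPM in small intestine and 0 in the other 6 organs.

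Spleen had a code led by Hoxb4, a gene active in blood-forming stem cells. Hoxb4 had 7.63, 4.85, 8.42, 13.5, 19.9, 11.6 and 12.6 CPM in the 7 libraries, numbered 1, 2, 3, 4, 7, 8 and 9. All 7 lay above the highest skeletal muscle library (2.32 CPM), and 6 of them overlapped the kidney range. Libraries 1 and 2 lay below the highest small intestine library (7.69 CPM), and library 2 also below the highest liver library (5.33 CPM). Hoxa7 had 1.64 to 10.4 CPM (median 4.63) and Hoxa3 0 to 5.66 CPM (3.56), with 0 CPM in library 9. The fit gave 7 genes higher, beside 29.3% of all genes, and 3 lower, beside 26.7%, so the share of higher genes was near that of all genes. The 7 were Hoxa3, Hoxa7, Hoxb4, Hoxb7, Hoxc4, Hoxc11 and Hoxd11, of which Hoxc11 and Hoxd11 had a spleen median of 0. The 3 were Hoxc5, Hoxc6 and Hoxd9. Library totals, which moved the median of all genes from -0.09 to 0.71, gave 12 higher and 0 lower, beside 48.8% and 11.3% of all genes in that fit. Hoxb4 was higher by 1.98 ± 0.31 on the log2 scale (adjusted p = 4.59e-08). A list of 5 genes of blood progenitors summed to 56.1 to 94.8 CPM over the 7 spleen libraries, and to 207 to 542 CPM in brain. In spleen none of its genes was at 0, and a list of 4 red cell genes summed to 17.5 to 7720 CPM. Hoxb4 was lowest, at 4.85 CPM, in library 2, which had the 7720 CPM of red cell genes, the 4295 CPM of liver genes and the lowest Hox sum. Without it, 6 genes were higher and 3 lower. The part of these cells in the Hox levels was not tested.

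By the median of the summed level, liver, heart and brain were lowest, with brain below the others. Liver had 10 genes lower than the mean of the other 6 organs, beside 31% of all genes, and 1 higher, Hoxa5, beside 29.9%. The share called lower was near that of all genes. Genes near 0 in several organs, such as Hoxc10 (-4.69) and Hoxa9 (-4.27), were not called, so this count does not measure how many were lower. The median log2 difference was -2.28 for the tested Hox genes and -0.11 for all genes. DESeq2 called 17 lower, beside 36.1%. The call of Hoxa5, at a log2 difference of 1.01 ± 0.32 (adjusted p = 0.00403), was lost with library totals. Hoxb4 had 0.446 to 5.33 CPM in liver (median 1.83) and reached 1 CPM in 13 of 15 libraries. No Hoxc gene reached 1 CPM in any liver library. In brain, 0 of the 39 genes reached 1 CPM in any of 15 libraries, and 38 had a median of 0. The highest values were 0.902 CPM of Hoxc4 and 0.656 CPM of Hoxb3, both in library 12. This library also had the highest levels of Gabra6 (11.7 CPM) and Cbln3 (59.0 CPM), 2 of a list of 6 cerebellar genes. Without library 12 the highest Hox sum in brain was 2.05 CPM. Which part of the brain the Hox counts came from was not tested. Hox genes are on in the hindbrain and spinal cord and off in the forebrain of the mouse embryo.

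The fit gave 22 Hox genes lower in brain, beside 34% of all genes, and 0 higher, beside 38.8% (0 also at an unadjusted p and with DESeq2). The 8 not called were Hoxa11, Hoxb9, Hoxc4, Hoxc9, Hoxc10, Hoxc11, Hoxd10 and Hoxd11, which were near 0 in several of the other 6 organs. DESeq2 called all 30 lower, beside 35.5% of all genes. Of a list of 7 homeobox genes of the fore- and midbrain, which included Otx1, Otx2, Emx1, Emx2, En1 and En2, all 7 were higher in brain by the same test, beside 38.8% of all genes. The mean of the other organs is again set in part by organs near 0, and some of these genes had a higher median in another organ. Emx1 and Emx2 had medians of 11.6 and 8.05 CPM in brain and of 42.4 and 23.5 CPM in kidney. En1 had 0.138 CPM in brain, below the level of 3 counts, and 3.45 CPM in skeletal muscle.

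The partners and neighbours of the Hox genes did not share the pattern of the clusters throughout. Pbx, Meis and Pknox proteins bind DNA together with Hox proteins. Of 9 such genes, 7 were higher and 1 lower in brain, beside 38.8% and 34% of all genes, while Hox genes were near 0 there. In kidney 2 of the 9 were higher and 2 lower, beside 26.9% and 26.7%, shares near those of all genes. Meis2 had a median of 178 CPM in brain and 15.2 CPM in kidney. In liver 7 of the 9 were lower, beside 31% of all genes, and in skeletal muscle also 7, beside 35.2%. Of 9 noncoding genes inside the clusters, 7 passed the filter. Of these, 7 were higher in kidney, beside 26.9% of all genes, and 5 lower in brain, beside 34%. Hoxb3os had a median of 22.1 CPM in kidney, Hoxb5os 6.57 CPM and Hoxaas3 5.91 CPM, with medians of 2.90, 0 and 0.546 CPM in spleen. Without a stated strand, reads of such genes cannot be told apart from those of an overlapping Hox gene, which the annotation gives for 10 of the 39 genes. By the annotation, Hoxc5 overlaps Hoxc10 and Hoxd3 overlaps Hoxd4 as well, so their levels are uncertain to that extent. Of 14 chromatin regulators of the clusters, such as the activator Kmt2a and the Polycomb enzymes Ezh1 and Ezh2, 2 were higher and 3 lower in kidney, beside 26.9% and 26.7% of all genes, and 3 were higher and 4 lower in brain, beside 38.8% and 34%. These shares lay below those of all genes. Of 7 genes of retinoic acid and axial signals, which set Hox boundaries in the embryo, 3 were higher in kidney and 0 lower by edgeR, beside 26.9% and 26.7%.

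The remaining 9 genes stayed below a median of 1 CPM in all 7 organs. They were mostly the ends of the clusters: Hoxb1 and Hoxd1 at the front and Hoxa13, Hoxb13, Hoxc12, Hoxc13, Hoxd12 and Hoxd13 at the back, with Hoxa6 between. The highest values in any library were 0.755 CPM of Hoxb1, 2.19 CPM of Hoxd1 and 2.42 CPM of Hoxa6. At the back they were 2.61 CPM of Hoxa13 in skeletal muscle library 11, 2.10 CPM of Hoxc13 in small intestine library 10, 1.10 CPM of Hoxb13 in small intestine library 4 and 0.555 CPM of Hoxd12 in spleen. Hoxc12 and Hoxd13 did not exceed 0.275 and 0.324 CPM. Group 13 genes pattern the end of the body, the digits and the lower gut and genital tract, which were not among the organs.

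Pou5f1 encodes Oct4, 1 of the reprogramming factors, and its level differed widely between libraries. Because the libraries carry no genotype, the Hox values are given beside Pou5f1 for single libraries and were not tested. Kidney library 4 had the highest kidney Pou5f1, 18.5 CPM, and a Hox sum of 648 CPM, which was the median of the organ. Kidney library 11 followed with 9.11 CPM of Pou5f1 and a Hox sum of 606 CPM. The kidney libraries with Pou5f1 at 0 had Hox sums from 591 to 853 CPM, so those of the libraries with most Pou5f1 lay inside this range. The lowest kidney Hox sums, 461 CPM in library 5 and 544 CPM in library 9, lay below this range. Pou5f1 was 0.763 CPM in library 5 and 0.234 CPM in library 9, and the latter level cannot be told from 0. These low sums are thus not set against Pou5f1, and the part of scaling in them was not tested. In skeletal muscle, library 12, which held the liver genes, had 6.45 CPM of Pou5f1 and a Hox sum of 144 CPM. This was within the range of 96.7 to 228 CPM at a Pou5f1 level of 0. The lowest sum of the organ, 88.9 CPM in library 9, lay below that range, with Pou5f1 at 0.324 CPM, which cannot be told from 0. This library also had 43.4% of its counts from the mitochondrial genome, and low sums went with high mitochondrial counts in this organ. What part either had in the sum was not tested. In heart, library 6 had 13.01 CPM of Pou5f1 and a Hox sum of 7.30 CPM, and in brain, library 15 had 2.44 CPM of Pou5f1 and a Hox sum of 0.257 CPM.

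In small intestine, libraries 12, 11 and 10 had 139, 122 and 75.5 CPM of Pou5f1 and Hox sums of 31.2, 41.5 and 209 CPM. Libraries with Pou5f1 at 0 spanned 9.41 to 175 CPM. The 3 libraries differed in the smooth muscle and mesenchyme list, at 677, 1296 and 8178 CPM. In liver, library 4 had the highest Pou5f1 of all 96 libraries, 199 CPM, with a Hox sum of 11.8 CPM and 0.354 CPM of Hoxa5. The median Hox sum of liver was 10.6 CPM. Liver libraries 10, 11 and 12 had 63.4, 83.4 and 43.6 CPM of Pou5f1 and the highest liver levels of Hoxa5, 8.82, 10.1 and 8.48 CPM. Their Hox sums were 16.5, 17.2 and 17.2 CPM, in the upper part of the liver range, while libraries 2 and 13, with 0 and 0.418 CPM of Pou5f1, had 17.8 and 17.6 CPM. Of the 3, library 12 held the adrenal genes. The next value of Hoxa5 was 5.45 CPM in library 3, which had Pou5f1 at 0. In these 3 libraries Hoxb3 was 0, 0 and 0.453 CPM, against 4.81 CPM in library 13, where Pou5f1 was 0.418 CPM, Hoxb4 was 5.33 CPM and Hoxa5 0.105 CPM. A list of 4 fibroblast genes summed to 121 to 145 CPM in libraries 10, 11 and 12 and to 62.1 to 351 CPM over all liver libraries. In spleen, library 4 had 14.3 CPM of Pou5f1 and the highest Hox sum, 59.4 CPM, of which Hoxb3 gave 14.8 CPM.

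**Figure D5:**
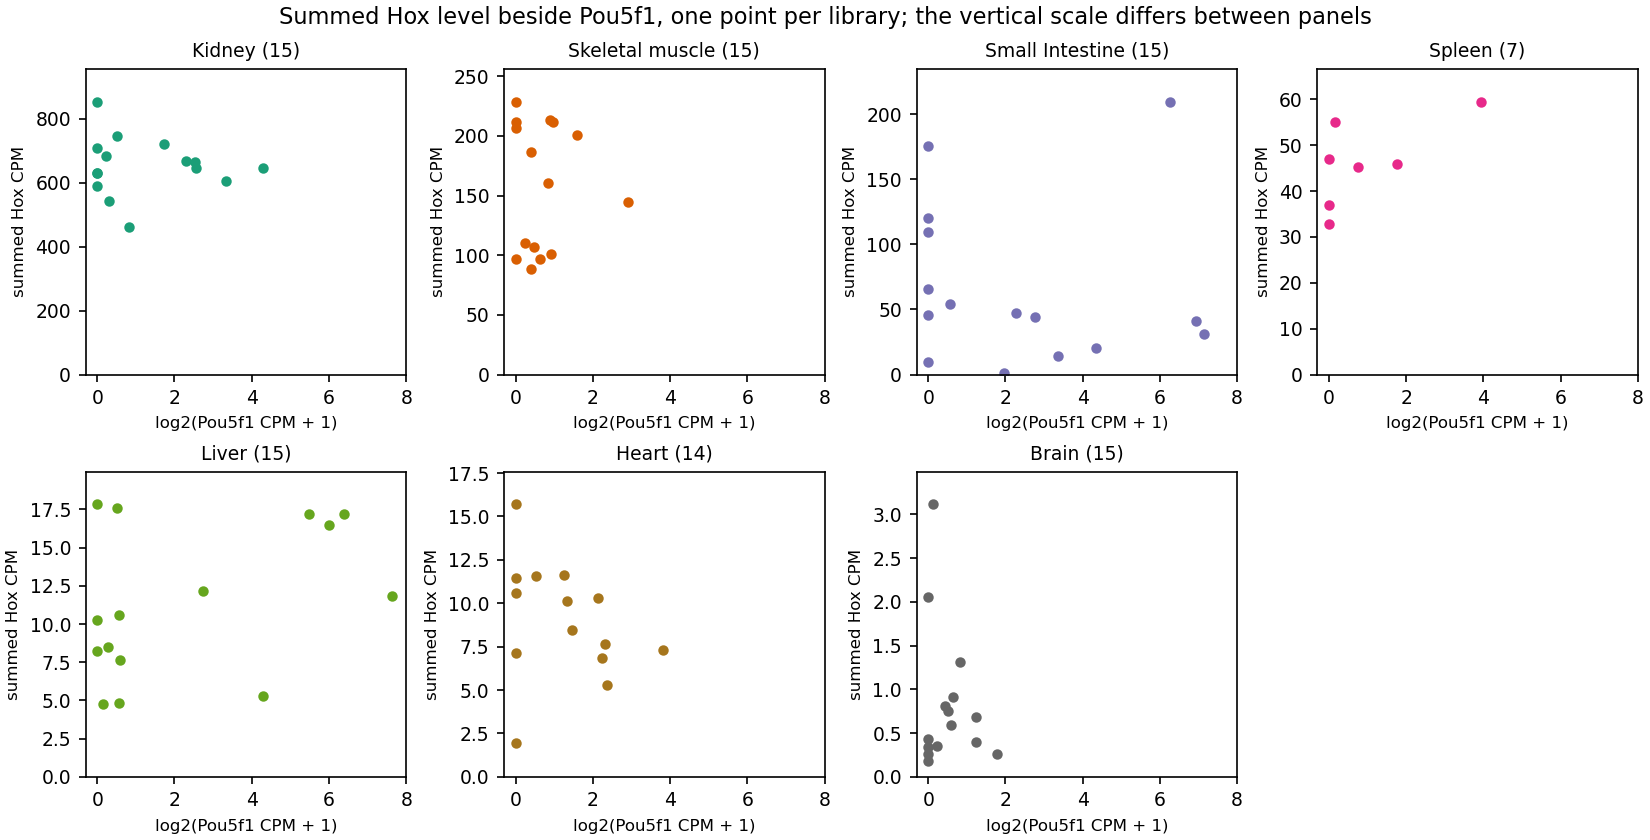
Summed Hox CPM (vertical axis, scale differs between panels) against log2 of the Pou5f1 CPM plus 1 in each library, by organ, with the number of libraries in brackets. Libraries with a high Pou5f1 level lie within the Hox range of the others in kidney, skeletal muscle, heart, brain and liver; small intestine library 10 and spleen library 4 have the highest Hox sums of their organs.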

How the data were processed

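RNA-seq of 7 mouse organs was deposited as 2 tables over 96 libraries. The first holds estimated counts per gene, deposited by the authors without scaling (26.8% of values above 0 are not whole, at a tolerance of 1e-06). The second holds a normalised signal made by the authors. The submitters' processing notes name GRCm39 and DESeq2. For aligner, counter, annotation and strand setting: not given in the sources used here. No library pair of an organ was identical (637 pairs compared), so each library was counted once. The 310 rows without a gene name took at most 0.113% of a library; no per-sample column was left unused (0 columns).

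Levels are CPM over all rows. Estimated counts were rounded and fitted in edgeR 4.0.16 (filterByExpr, TMM, 1 term per organ, all 96 libraries, quasi-likelihood test), with Benjamini-Hochberg adjustment over 20100 genes and a threshold of 0.05. Each organ was set against the mean of the other 6, and pairs against each other. DESeq2 1.42.0 was an alternative. On simulated counts the fit recovered 98 of 100 log2 changes of 1 and 100 of 100 of 2, with 7 false calls. Apart from these changes, set in kidney, each simulated gene had the same level in every organ. Genes near 0 in some organs and high in others were thus not covered. Exon lengths came from GENCODE M21 (GRCm38) and promoters from RefSeq (GRCm38.p6), a different build from that of the notes, so no file coordinates are given. The members and lists follow a fixed rule, some of their genes are not reported here by name, and the members and lists were chosen with earlier results of these data known. The level of 3 counts covers counting error only. Each ± is an approximate SE over libraries, the size of the log2 difference divided by the square root of the test's F statistic. Genotypes were not compared.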

Additional observations from a re-analysis of the deposited data

Results flagged for a closer look

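In the 7 spleen libraries, 10 values were examined for a library far from the others, namely 9 Hox genes and the Hox sum, and 3 genes had one. For values with a normal spread, chance gives such a gap in about 1 in 20 groups. Such a spread was not shown for these CPM values, so 3 of 10 is not set against that rate. Hoxb3 was 14.8 CPM in library 4, and the next value was 4.14 CPM. That library also had the highest Pou5f1 of the spleen libraries, 14.3 CPM, and the highest Hoxb2, 6.60 CPM. Hoxb7 was 5.42 CPM in library 9, and the next value was 2.80 CPM. That library had the highest sum of 4 pancreatic genes in spleen, 180 CPM. Hoxd8 was 5.28 CPM in library 1, and the next value was 2.32 CPM.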

How the results depend on the processing

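Kidney had 22 to 31 genes present over the alternatives, against 29, and its 30 higher genes against the mean of the other 6 organs and against liver were called by edgeR and DESeq2 alike. With 0.5 CPM as the level, spleen had 16 genes, liver 7 and heart 5. With 5 CPM, skeletal muscle had 7, small intestine 1, spleen 1, liver 0 and heart 0. Heart had 4 genes at 1 CPM with TMM scaling and 5 with mitochondrial genes out of the totals.

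With library totals in place of TMM factors, skeletal muscle had 2 genes lower (beside 56.9% of all genes), spleen 12 higher and 0 lower (48.8% and 11.3%), liver 0 higher (19.5%), heart 0 higher (18.1%), and kidney 2 lower than skeletal muscle (11.7%). On the same scale, 2 genes were higher in skeletal muscle than in each other organ. The same change moved the median log2 difference of all genes to 0.13 in kidney (-0.13 with TMM), -0.48 in liver (-0.11), -0.59 in heart (-0.22) and 0.46 in brain (-0.03), and for small intestine over liver to 0.45 (0.1), kidney over liver to 0.52 (0) and skeletal muscle over heart to -0.43 (-0.02). DESeq2 gave 5 lower in small intestine (38% of all genes), 6 lower in spleen (30.4%), 17 lower in liver (36.1%), 19 lower and 0 higher in heart (34.6% and 27.1%), so the first 2 counts lay below the general share. With no filter, spleen had 14 higher (26.2%) and heart 0 (16.2%). Without the 2 libraries above 50% mitochondrial counts, small intestine had 2 lower (27.6%). Leaving out each spleen library in turn gave 5 to 6 genes higher and 3 to 4 lower. The weighted paralogue number moved by less than 1 SD in each organ when counts were taken per kb. Leaving out a spleen library, heart library 1, small intestine library 4 or brain library 12, the pair of kidney and skeletal muscle and the comparison with each organ were chosen after seeing the data. Of the recomputed results, 169 stayed within 1.5 times or 1 SD of the value reported and 26, all printed here, did not. Apart from the scale itself, the causes of these shifts were not tested. The columns of different organs share running numbers, which no label ties to an animal. Over 261 pairs of libraries with the same number from different organs, deviations from the organ mean correlated at -0.134 to 0.44 across genes (median 0.112), against a median of -0.016 over 3662 pairs with different numbers, and 139 of the 261 exceeded 0.1. In 0 of 96 libraries was the own number the best match in every organ. Of the 3662 pairs with different numbers, 554 exceeded 0.1. Libraries with the same number may thus be related, and the main fit did not model this. Whether they came from 1 animal was not tested. With the number as a replicate block, also tried after seeing the data, heart had 0 genes higher (1 without), and no other count moved by over 1.5 times.

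Levels near 3 counts (0.168 to 0.453 CPM) cannot be told from 0, which limits what can be said of Hox genes in brain and heart.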
